A study of Caenorhabditis elegans with 14 samples.

Results

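Libraries labelled as heat-shocked were compared with libraries labelled as kept without heat shock in Caenorhabditis elegans animals with reduced insulin signaling, in 4 of the 14 RNA-seq libraries of the study. By their labels, the rIIS-C (HS) libraries came from rrf-3(pk1426);daf-2(e1368) worms fed bacteria with an empty RNAi vector, grown at 20 °C and moved to 33 °C for 2 h (2 libraries). The rIIS-C libraries were of the same strain on the same bacteria, kept at 20 °C (2 libraries). The daf-2(e1368) allele weakens the insulin/IGF-1 receptor, rrf-3(pk1426) makes animals more sensitive to RNA interference, and every group of the study carries the rrf-3 allele. C (HS) and C are the rrf-3(pk1426) strain without the daf-2 allele, with and without the same heat shock (2 libraries each), and are used here to set the comparison in rIIS-C beside that in animals with normal insulin signaling. A few animals that no longer moved were taken out of C (HS). The study gives the stage of the worms as L4 to young adult in its results and as young adult to gravid in its methods. Total RNA was taken from whole worms, harvested directly after the heat shock, so fewer cells of a type and less RNA per cell cannot be told apart. The replicates were biological ones, picked from a larger set for the integrity of their RNA.

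Heat makes cytosolic proteins unfold, and the transcription factor HSF-1 then switches on genes of chaperones, which bind unfolded proteins. The hsp-16 genes encode small heat shock proteins, and hsp-70, F44E5.4 and F44E5.5 encode inducible members of the Hsp70 family. In animals with a weak DAF-2 receptor the FOXO factor DAF-16 enters the nucleus, and such animals are known for long life and for resistance to heat.

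Exon reads numbered 13039713 and 6522952 in rIIS-C (HS), against 4681170 and 12726797 in rIIS-C. Reads across an exon junction made up 24.9% and 9.58% of exon reads in rIIS-C (HS) replicates 1 and 2, against 9.69% and 26.3% in rIIS-C replicates 1 and 2. Of the 7 groups, 6 hold 1 library with a low and 1 with a high junction share, and the study used more than one read length and instrument, so in those 6 groups the junction share was read as a technical batch. C (HS) had 14.3% and 16.7%, values that lie between the low and the high shares and belong to neither. Of the gene reads, 1.26% and 3.03% fell in mitochondrial protein-coding genes in rIIS-C (HS), against 1.64% and 0.725% in rIIS-C. The 2 libraries of a group differed by far more than counting noise (a mean chi-square per gene of 28.7 in rIIS-C (HS) and 35.9 in rIIS-C). They also differed in junction share, so this spread cannot tell separate samples from technical batches. All 4 were counted as separate samples because the study describes its replicates as biological.

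The heat-inducible chaperone genes did not rise in the libraries labelled rIIS-C (HS), which goes against that label as a check of the heat shock. Whether these 2 libraries came from animals that received the heat shock cannot be told from the files, so each value of rIIS-C (HS) against rIIS-C below compares the libraries as labelled. Of 9 such genes, all of them tested, 0 rose and 4 fell, against 6.56% and 3.63% of all genes tested, and the median log2 fold change of the 9 was -1.41. At an unadjusted p under 0.05, 0 were higher and 9 lower, and DESeq2 called 0 rises and 4 falls. F44E5.4 (chromosome II, 11757212 to 11759258 in the WBcel235 assembly) had 143 and 130 CPM in rIIS-C (HS), against 442 and 488 CPM in rIIS-C, where CPM (counts-per-million) are exon reads set against the scaled size of each library. Its log2 fold change was -1.77 ± 0.16 (standard error, as after every ± below; adjusted p = 6.96e-05 in edgeR, the tool behind every adjusted p here unless another is named). Its neighbour F44E5.5, a near-identical copy that shares reads with it, had 145 and 140 CPM in rIIS-C (HS), against 417 and 498 CPM in rIIS-C (log2 fold change -1.68 ± 0.17, adjusted p = 0.000205). For both genes the 2 rIIS-C (HS) libraries lay close together and well below the 2 rIIS-C libraries.

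hsp-70 (chromosome I, 9320412 to 9322481) had 30.9 and 20.4 CPM in rIIS-C (HS), against 60.4 and 96.1 CPM in rIIS-C (log2 fold change -1.61 ± 0.31, adjusted p = 0.00901). hsp-16.2 (chromosome V, 1804441 to 1804924) had 23.7 and 12.9 CPM in rIIS-C (HS), against 33.9 and 58.6 CPM in rIIS-C (log2 fold change -1.33 ± 0.32, adjusted p = 0.023). Neither gene's groups overlapped, but the call of hsp-16.2 was lost when replicate 2 of either group was left out (adjusted p = 0.107 without that of rIIS-C, 0.0812 without that of rIIS-C (HS)). The other 5 members did not pass the test, and their groups overlapped. hsp-16.41 had 23.03 and 11.04 CPM in rIIS-C (HS), against 17.1 and 72.9 CPM in rIIS-C (log2 fold change -1.41 ± 0.51, adjusted p = 0.103). The copies hsp-16.48 and hsp-16.49 had log2 fold changes of -1.05 and -1.01, and the copies hsp-16.1 and hsp-16.11 had -0.74 and -1.48. In 4 of these 5 genes the value turned positive without rIIS-C replicate 2, the library with their highest counts, with log2 fold changes of 0.03 for hsp-16.1, 0.03 for hsp-16.41, 0.10 for hsp-16.48 and 0.10 for hsp-16.49.

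The summed level of the 9 genes was 720 and 533 CPM in rIIS-C (HS), against 1279 and 2085 CPM in rIIS-C. The level in rIIS-C was itself above that of the control strain without heat shock. The median of the 9 group means was 147.9 CPM in rIIS-C, 30.9 CPM in C and 14.2 CPM on daf-16 RNAi in the rIIS-C strain. In rIIS-C (HS) this median was 69.97 CPM, below rIIS-C and above C. These medians are set side by side with no test. With the junction-share batch as a block 8 of the 9 fell (9.45% of all genes), and with the trend of each library with exon length removed all 9 fell (4.69% of all genes). Without rIIS-C replicate 1 the count of falls was also 8. On uniquely mapped exon reads 3 of the 9 could be tested and 1 fell, 1 fell in the fit of all 14 libraries and in that of the 4 libraries alone, and 8 fell with no filter on low counts. In none of the settings tried did a member rise. In the control strain all 9 genes rose, as did 27.4% of all genes, with single-library levels of 882 to 8319 CPM in C (HS), against 7.94 to 115 CPM in C, and a median log2 fold change of 7.63. The group labelled hsf-1i (HS), the rIIS-C strain on hsf-1 RNAi with heat shock, had 0.573 to 9.57 CPM, against 11.04 to 145 CPM in rIIS-C (HS), so each of the 9 genes was higher in both rIIS-C (HS) libraries.

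**Figure D1:**
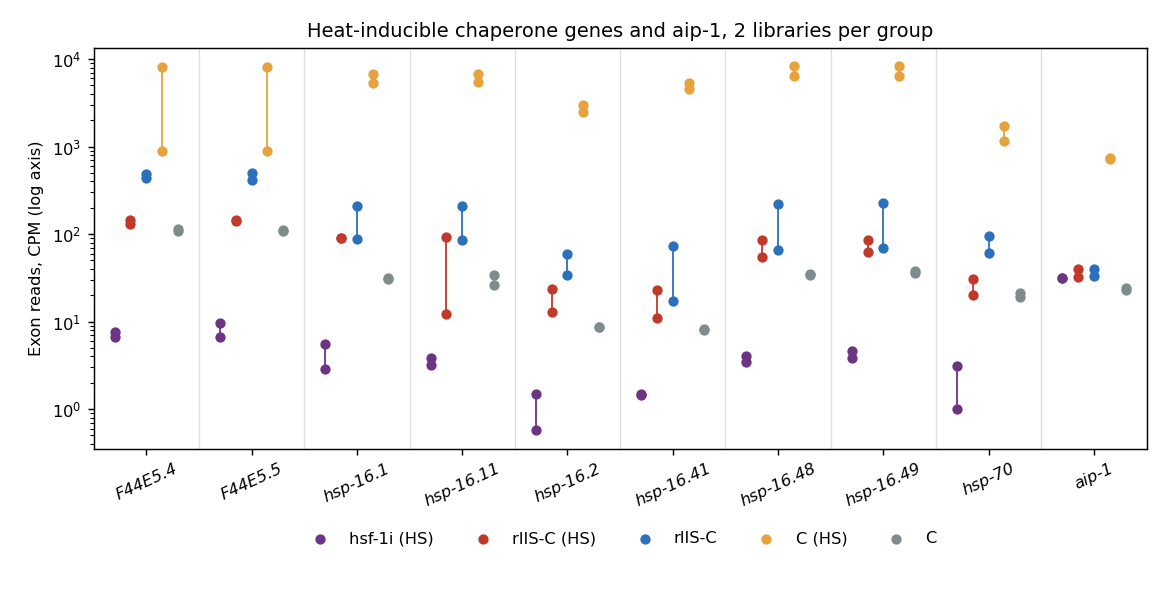
Exon reads (CPM, log axis) of the 9 heat-inducible chaperone genes and aip-1. Each point is a library, with 2 libraries per group joined by a line. For the 9 chaperone genes rIIS-C (HS) and rIIS-C lie between 11.04 and 498 CPM, below every C (HS) library (882 to 8319 CPM) and above both hsf-1i (HS) libraries.

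aip-1, an arsenite-inducible gene whose product works with the proteasome, had 40.1 and 32.1 CPM in rIIS-C (HS), against 33.0 and 40.4 CPM in rIIS-C. The groups overlapped fully, and the log2 fold change was -0.03 (± 0.16, adjusted p = 0.942). In the control strain aip-1 had 739 and 728 CPM in C (HS), against 23.01 and 24.4 CPM in C.

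Among the regulators, hsf-1 itself (chromosome I, 11953797 to 11961962) had 36.6 and 45.02 CPM in rIIS-C (HS), against 77.3 and 56.0 CPM in rIIS-C. It fell (log2 fold change -0.71 ± 0.18, adjusted p = 0.0279), a call that was lost when replicate 1 of either group was left out (adjusted p = 0.0919 without that of rIIS-C, 0.195 without that of rIIS-C (HS)). It was the only one of 11 tested regulators of heat and insulin signaling that passed. The FOXO gene daf-16 had 65.0 and 78.0 CPM in rIIS-C (HS), against 91.9 and 53.5 CPM in rIIS-C (log2 fold change -0.01 ± 0.26), and the Nrf-type gene skn-1 had 108 and 122 CPM in rIIS-C (HS), against 164 and 110 CPM in rIIS-C (log2 fold change -0.25 ± 0.19). The receptor gene daf-2 had 31.2 and 60.4 CPM in rIIS-C (HS), against 115 and 48.2 CPM in rIIS-C. The change (-0.83 ± 0.40 in log2, adjusted p = 0.2199) passed with the batch as a block (adjusted p = 0.013). These 3 genes overlapped between the groups, with rIIS-C replicate 1 highest each time.

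The chaperones that cells hold at normal temperature moved little, with a share of rises near the 6.56% of all genes. Of 28 tested genes of the cytosolic folding machinery 2 rose and 0 fell (median log2 fold change 0.16, below 0 at -0.14 on RPKM), and 0 rose without rIIS-C (HS) replicate 1. Both are prefoldin subunits, which hand unfolded chains to the chaperonin. pfd-4 had 168 and 135 CPM in rIIS-C (HS), against 71.6 and 103.8 CPM in rIIS-C (log2 fold change 0.78 ± 0.20, adjusted p = 0.0292), and pfd-2 had a log2 fold change of 0.53. The major constitutive Hsp70 gene hsp-1 had 2802 and 3071 CPM in rIIS-C (HS), against 2939 and 1754 CPM in rIIS-C, and hsp-90 had 2735 and 2848 CPM in rIIS-C (HS), against 2767 and 2035 CPM in rIIS-C. Both overlapped between the groups and were not called.

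Outside the hsp-16 genes, 2 of 9 small heat shock protein genes rose. hsp-25 had 156 and 149 CPM in rIIS-C (HS), against 87.1 and 77.3 CPM in rIIS-C (log2 fold change 0.90 ± 0.14, adjusted p = 0.00291), and hsp-43 had 203 and 169 CPM in rIIS-C (HS), against 114 and 129 CPM in rIIS-C (log2 fold change 0.61 ± 0.15, adjusted p = 0.0274). The count was 1 with replicate 1 of either group left out. Among 22 genes of protein folding in the endoplasmic reticulum 4 rose and 0 fell (7 rose without rIIS-C replicate 1, and 1 or 2 when replicate 1 or 2 of rIIS-C (HS) was left out). The protein disulfide isomerase gene pdi-6 had 244 and 234 CPM in rIIS-C (HS), against 114 and 122 CPM in rIIS-C (log2 fold change 1.01 ± 0.15, adjusted p = 0.00198). pdi-2, a disulfide isomerase that is also a subunit of the enzyme that hydroxylates collagen prolines, had a log2 fold change of 0.77, the calreticulin gene crt-1 0.60 and the choline kinase gene ckb-2 0.81. In mitochondria, hsp-6 and hsp-60 were not called, and of 13 chaperone and protease genes there 0 rose and 1 fell, the DnaJ gene dnj-10 (log2 fold change -0.55). Of 33 proteasome subunit genes 0 rose and 0 fell in edgeR, while 3 were higher and 0 lower at an unadjusted p under 0.05, and DESeq2 called 1 rise and 0 falls. Their log2 fold changes ran from -0.21 to 0.53.

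Of 13892 genes tested, 911 rose (6.56%) and 504 fell (3.63%) at an adjusted p under 0.05, and at an unadjusted p under 0.05 the number of genes was 3641. The median log2 fold change of all genes was -0.03. The counts depended on the libraries in the fit: 266 rose and 45 fell with all 14 libraries, and 52 rose and 3 fell with only the 4 libraries compared. With the batch as a block 1639 genes rose (11.8%) and 1313 fell (9.45%), and every one of the 1415 calls without the block was kept. Without rIIS-C (HS) replicate 1 the counts were 459 rises and 80 falls, and without rIIS-C replicate 2 they were 1087 rises and 928 falls. Tested on the authors' RPKM, which carry no scaling for composition and place the median gene at -0.28, 412 genes rose and 1548 fell, so rises made up 21.02% of the calls there, against 64.4% of the calls in edgeR. By the cutoffs that the study used (1.5-fold either way and an unadjusted p no higher than 0.05), 1382 genes rose (9.95%) and 1177 fell (8.47%). In 3216 genes (23.2%) both rIIS-C (HS) libraries were above both rIIS-C libraries, and in 3020 genes (21.7%) both were below.

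The counts for gene lists below come from the fit of 12 libraries (all but C (HS)) and depended on that choice. With only the 4 libraries compared, 23 cuticle collagens, 6 genes repressed by DAF-16 and 5 C-type lectins rose, as did 1 gene each among lysozymes, UDP-glucuronosyltransferases, metal-response genes and genes activated by DAF-16. In that fit 0 rose among intestinal genes, muscle genes, major sperm proteins, other spermatogenesis genes, glutathione S-transferases, antioxidant enzymes, cytochrome P450 genes, transthyretin-related genes, histones, vitellogenins, ribosomal protein genes and genes of oxidative phosphorylation. 0 rose there among body-shape collagens, both fatty acid lists, small heat shock proteins and genes of folding in the cytosol and the endoplasmic reticulum. With all 14 libraries, 23 cuticle collagens, 8 genes repressed by DAF-16, 18 C-type lectins, 8 intestinal genes, 8 muscle genes and 16 major sperm proteins rose.

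**Figure D2:**
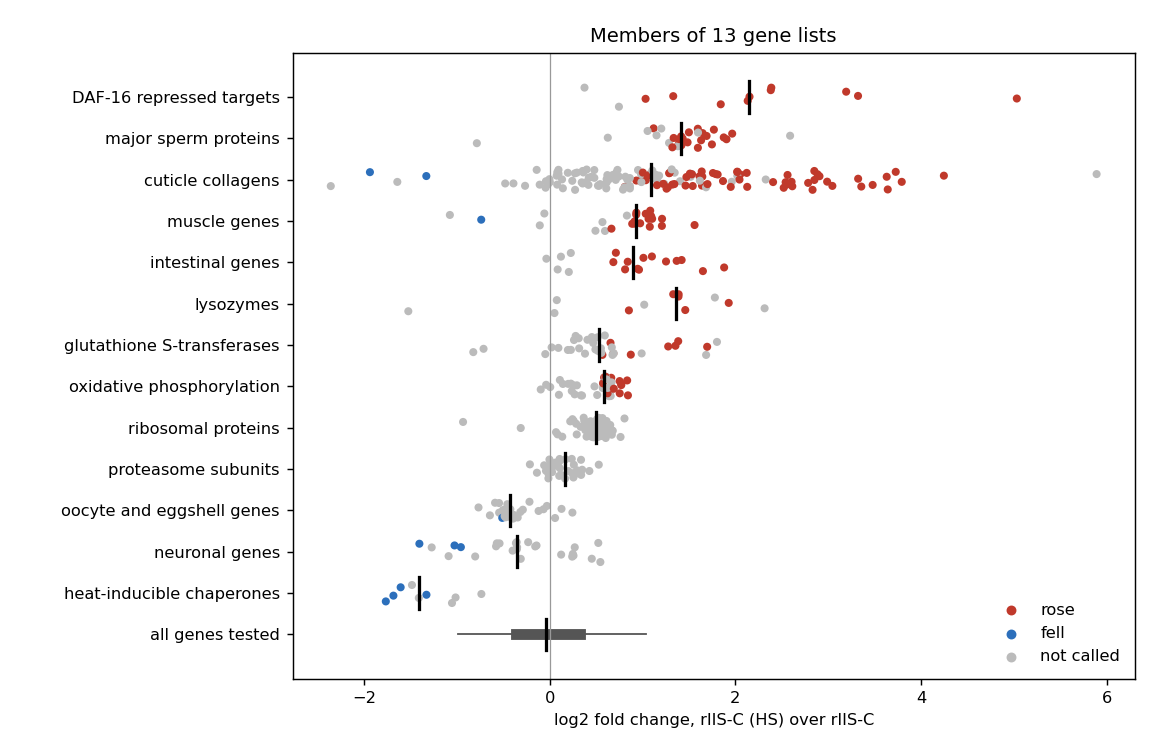
Log2 fold changes of rIIS-C (HS) over rIIS-C for the tested members of 13 gene lists, each point a gene and each black bar the median of its list, with the vertical position of points spread at random. The bottom row shows all 13892 genes tested, with the thick line from the 25th to the 75th percentile and the thin line from the 5th to the 95th. Genes repressed by DAF-16 have the highest median at 2.14 and heat-inducible chaperones the lowest at -1.41.

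Of the gene lists described here, cuticle collagens held the most rises by number, in a list of 140 tested genes. Larger shares rose in some shorter lists, such as 10 of 12 genes repressed by DAF-16 and 13 of 18 intestinal genes. The cuticle of the worm is built of collagens, which the epidermis makes anew around each molt. Of 140 col genes tested (159 are in the files), 59 rose and 2 fell, against 6.56% and 3.63% of all genes, and the median log2 fold change was 1.09. The counts were 81 rises without rIIS-C replicate 1 and 52 without rIIS-C (HS) replicate 1, and 46 on uniquely mapped reads. In 91 of the 140 both rIIS-C (HS) libraries were above both rIIS-C libraries, against 23.2% of all genes. Of the 15 genes with the largest rises, 12 were col genes.

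col-149 (chromosome V, 10291794 to 10292812) led with 169 and 138 CPM in rIIS-C (HS), against 9.01 and 7.45 CPM in rIIS-C, a log2 fold change of 4.25 ± 0.19 (adjusted p = 1.76e-06). col-7 (chromosome I, 7401697 to 7402708) had 249 and 220 CPM in rIIS-C (HS), against 20.4 and 14.1 CPM in rIIS-C (log2 fold change 3.79 ± 0.21). In both genes the 2 rIIS-C (HS) libraries lay close together and far above the 2 rIIS-C libraries. col-117 had 300.2 and 186 CPM in rIIS-C (HS), against 23.8 and 13.9 CPM in rIIS-C (log2 fold change 3.73 ± 0.39), a call that was lost on uniquely mapped reads (adjusted p = 0.431). col-133 had 505 and 504 CPM in rIIS-C (HS), against 53.7 and 28.4 CPM in rIIS-C (log2 fold change 3.64 ± 0.26). The log2 fold changes of the other 8 col genes among the 15 ran from 2.89 for col-39 to 3.63 for col-126.

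In the control strain without heat shock these 4 genes were also high. Means in C were 456 CPM for col-149, 244 CPM for col-7, 304 CPM for col-117 and 662 CPM for col-133. In the same order, they were 489, 271, 280 and 754 CPM on daf-16 RNAi in the rIIS-C strain. On skn-1 RNAi they were 73.9, 385, 497 and 670 CPM, and in hsf-1i (HS) 80.6, 309, 445 and 512 CPM. For each of the 4 genes the mean of rIIS-C was the lowest of all groups. These levels are set side by side with no test.

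Not all cuticle genes followed. col-19, an abundant collagen of the adult cuticle, had 3583 and 3317 CPM in rIIS-C (HS), against 3166 and 2268 CPM in rIIS-C (log2 fold change 0.34 ± 0.19, adjusted p = 0.286). col-135 fell, with 33.5 and 41.6 CPM in rIIS-C (HS), against 112 and 76.5 CPM in rIIS-C (log2 fold change -1.33 ± 0.22, adjusted p = 0.00398), as did col-116 at low counts. Of 20 collagen genes known from mutants with a changed body shape 3 rose: dpy-5, ram-2 and bli-2, while 10 rose with the batch as a block and 9 without rIIS-C replicate 1. dpy-5 had 52.7 and 62.1 CPM in rIIS-C (HS), against 23.97 and 15.9 CPM in rIIS-C (log2 fold change 1.55 ± 0.19, adjusted p = 0.000749). Among 23 molting genes 2 rose, mlt-8 and wrt-4, and 0 fell, against 6.56% and 3.63% of all genes.

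**Figure D3:**
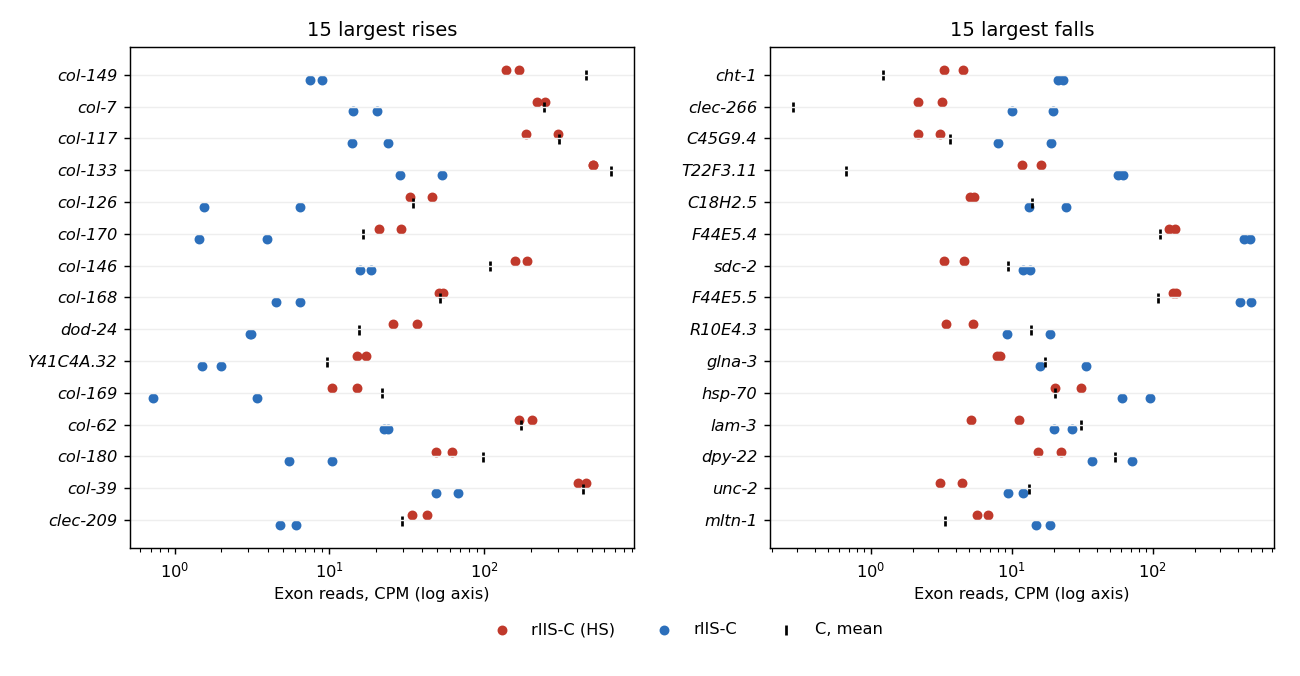
Exon reads (CPM, log axis) in each library for the 15 protein-coding genes with the largest rises (left) and the 15 with the largest falls (right) among genes past the threshold, without overlap, and with 10 CPM or more as the mean of either group. Red points are the 2 rIIS-C (HS) libraries, blue points the 2 rIIS-C libraries and black ticks the mean of the 2 C libraries. col-149 leads the rises with 169 and 138 CPM in rIIS-C (HS), against 9.01 and 7.45 CPM in rIIS-C.

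Most genes known to be repressed by DAF-16 rose. Of 12 tested, 10 rose and 0 fell, with a median log2 fold change of 2.14, and 9 to 11 rose when any of the 4 libraries was left out. dod-24 (chromosome IV, 12940175 to 12941352), a gene named for lying downstream of DAF-16, had 25.6 and 36.8 CPM in rIIS-C (HS), against 3.06 and 3.10 CPM in rIIS-C (log2 fold change 3.32 ± 0.24, adjusted p = 3.65e-05). dod-19 had 256 and 257 CPM in rIIS-C (HS), against 62.5 and 54.6 CPM in rIIS-C (log2 fold change 2.13). dod-22 had 32.1 and 30.7 CPM in rIIS-C (HS), against 6.67 and 5.64 CPM in rIIS-C (log2 fold change 2.38). In these 3 genes the 2 libraries of each group lay close to each other.

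dod-17 followed with a log2 fold change of 2.39, the acyl-CoA dehydrogenase gene acdh-1 with 2.15, dct-17 with 1.84, the lysozyme gene lys-4 with 1.33 and dod-23 with 1.03. The stearoyl-CoA desaturase gene fat-7 had 5.06 and 6.74 CPM in rIIS-C (HS), against 0.180 and 0.776 CPM in rIIS-C (log2 fold change 3.19 ± 0.42, adjusted p = 0.00105), and dod-21 had 1.94 and 4.73 CPM in rIIS-C (HS), against 0.361 and 0 CPM in rIIS-C (adjusted p = 0.0082). The 2 members that were not called were fat-5 (log2 fold change 0.75) and cpt-4 (0.37). Among the other groups without heat shock, dod-24 averaged 25.02 CPM on daf-16 RNAi in the rIIS-C strain and 15.4 CPM in C. On skn-1 RNAi in the rIIS-C strain it averaged 0 CPM. All of these levels are set side by side with no test.

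Genes known to be activated by DAF-16 gave a mixed list: 5 of 15 rose and 0 fell (median log2 fold change 0.32, at 0 on RPKM), and 3 rose without rIIS-C (HS) replicate 1. The superoxide dismutase gene sod-3, the usual reporter of DAF-16 activity, had 20.0 and 15.1 CPM in rIIS-C (HS), against 7.39 and 11.6 CPM in rIIS-C (log2 fold change 0.85 ± 0.24, adjusted p = 0.0495). The glyceraldehyde-3-phosphate dehydrogenase gene gpd-2 had 932 and 937 CPM in rIIS-C (HS), against 532 and 409 CPM in rIIS-C (log2 fold change 0.99 ± 0.16, adjusted p = 0.00333). The others were cdr-2 and ctl-2, described next, and the glyoxylate enzyme gene icl-1 (log2 fold change 0.72 ± 0.15, adjusted p = 0.0140). The metallothionein gene mtl-1, the small heat shock protein gene hsp-12.6 and the lysozyme gene lys-7, all known targets, were not called and overlapped between the groups.

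Genes that handle metals, oxidants and foreign compounds rose in part of each family, and 0 fell in the 12-library fit (0 to 4 of each family were lower at an unadjusted p under 0.05). Of all genes tested 6.56% rose and 3.63% fell in that fit, and 11.8% rose and 9.45% fell with the batch as a block. Cytochrome P450 genes came nearest to the share of all genes that rose. Of these, 12 were higher and 4 lower at an unadjusted p under 0.05. With the batch as a block 3 cytochrome P450 genes fell, 1 UDP-glucuronosyltransferase and 1 cytochrome P450 gene fell with replicate 1 of rIIS-C left out, and 1 antioxidant enzyme gene fell with its replicate 2 left out. Of 10 metal-response genes 4 rose and 0 fell, all 4 of them cdr genes, which are named for their response to cadmium. cdr-2 had 134 and 106 CPM in rIIS-C (HS), against 18.03 and 25.7 CPM in rIIS-C (log2 fold change 2.43 ± 0.19, adjusted p = 3.01e-05), and cdr-4 had 135 and 115 CPM in rIIS-C (HS), against 23.1 and 38.7 CPM in rIIS-C (log2 fold change 1.99 ± 0.22, adjusted p = 0.000313). For both genes the lowest rIIS-C (HS) library was far above the highest rIIS-C library. Among 15 antioxidant enzyme genes 6 rose and 0 fell (2 when replicate 1 of rIIS-C (HS) was left out), and 9 rose with the batch as a block. The catalase genes ctl-1 and ctl-2 had log2 fold changes of 1.095 and 1.02, and the methionine sulfoxide reductase gene msra-1 had 1.00.

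Glutathione S-transferases, which attach glutathione to toxic compounds, had 8 rises and 0 falls among 36 tested, and 15 rises with the batch as a block. Of all genes 6.56% rose, and 11.8% with that block. The count was 2 with replicate 1 of rIIS-C (HS) left out, and 5 or 13 with replicate 1 or 2 of rIIS-C left out. gst-39 had 25.5 and 21.2 CPM in rIIS-C (HS), against 8.65 and 9.51 CPM in rIIS-C (log2 fold change 1.35 ± 0.20, adjusted p = 0.00178). gst-4, the usual reporter of SKN-1 activity, had 30.2 and 28.8 CPM in rIIS-C (HS), against 12.98 and 28.6 CPM in rIIS-C, and was not called (adjusted p = 0.309). UDP-glucuronosyltransferases, which attach sugar to such compounds, had 13 rises and 0 falls among 55. ugt-19 had 83.7 and 81.7 CPM in rIIS-C (HS), against 15.1 and 19.4 CPM in rIIS-C (log2 fold change 2.24 ± 0.15, adjusted p = 1.89e-05), and ugt-62 had 558 and 685 CPM in rIIS-C (HS), against 185 and 161 CPM in rIIS-C (log2 fold change 1.84 ± 0.17). Of 52 cytochrome P450 genes 6 rose and 0 fell, 3 without rIIS-C (HS) replicate 1, with a list median of 0.16 (-0.11 on RPKM).

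Part of the lysozyme and C-type lectin genes rose. Lysozymes cut bacterial cell walls, and C-type lectins bind sugars, many of them in the gut. Of 12 lysozyme genes 6 rose and 0 fell (median log2 fold change 1.36). lys-2 had 678 and 658 CPM in rIIS-C (HS), against 188 and 163 CPM in rIIS-C (log2 fold change 1.93 ± 0.15, adjusted p = 2.66e-05), and lys-1 had 1166 and 1257 CPM in rIIS-C (HS), against 498 and 383 CPM in rIIS-C (log2 fold change 1.46 ± 0.16). Of 107 C-type lectin genes 26 rose and 2 fell, the fallen ones being clec-266 and clec-119, and 22 to 24 rose when a library was left out. Their median log2 fold change of 0.34 was at -0.03 on RPKM. clec-85 had 101.1 and 89.6 CPM in rIIS-C (HS), against 21.1 and 19.4 CPM in rIIS-C (log2 fold change 2.24 ± 0.19, adjusted p = 5.75e-05), and clec-66 had 81.2 and 77.3 CPM in rIIS-C (HS), against 16.9 and 17.2 CPM in rIIS-C (log2 fold change 2.22 ± 0.16).

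Marker genes of several tissues moved between the groups. Of 18 intestinal genes 13 rose and 0 fell (median log2 fold change 0.89), and 11 to 13 rose when any library was left out. Their summed level was 14639 and 16588 CPM in rIIS-C (HS), against 7943 and 5543 CPM in rIIS-C. The aspartyl protease gene asp-3 had 1937 and 1909 CPM in rIIS-C (HS), against 719 and 506 CPM in rIIS-C (log2 fold change 1.65 ± 0.18, adjusted p = 0.000313), and the gut esterase gene ges-1 had 58.8 and 68.1 CPM in rIIS-C (HS), against 28.3 and 21.4 CPM in rIIS-C (log2 fold change 1.37 ± 0.20, adjusted p = 0.00169). The part of intestinal content in the rises of lysozymes, lectins and detoxification enzymes was not tested.

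Of 25 muscle genes 17 rose and 1 fell (median log2 fold change 0.93), and 13 to 20 rose when a library was left out. The troponin I gene unc-27 had 669 and 599 CPM in rIIS-C (HS), against 284 and 306 CPM in rIIS-C (log2 fold change 1.104 ± 0.15, adjusted p = 0.00118), and the myosin light chain gene mlc-1 had 594 and 519 CPM in rIIS-C (HS), against 255 and 226 CPM in rIIS-C (log2 fold change 1.21 ± 0.16). The body wall myosin gene unc-54 had 840 and 1221 CPM in rIIS-C (HS), against 627 and 341 CPM in rIIS-C (log2 fold change 1.09 ± 0.27, adjusted p = 0.0263). The troponin T gene tnt-3 fell, with 9.23 and 12.33 CPM in rIIS-C (HS), against 17.8 and 17.6 CPM in rIIS-C (log2 fold change -0.74 ± 0.17), and the giant muscle kinase gene unc-22 had a log2 fold change of -1.08 (adjusted p = 0.0597). With the exon length trend removed 22 of the 25 rose and 0 fell.

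Sperm genes differed too. Of 31 tested major sperm protein genes, which encode the motility protein of nematode sperm, 22 rose and 0 fell (median log2 fold change 1.42). They share reads among near-identical copies, and on uniquely mapped reads, where 26 could be tested, 0 rose and the median was 1.49. On total reads 5 rose when replicate 1 of rIIS-C (HS) was left out and 12 when that of rIIS-C was. Their summed level was 5307 and 2831 CPM in rIIS-C (HS), against 1244 and 1686 CPM in rIIS-C. msp-49 had 133 and 89.5 CPM in rIIS-C (HS), against 24.5 and 31.9 CPM in rIIS-C (log2 fold change 1.97 ± 0.24, adjusted p = 0.000675). Of 24 other spermatogenesis genes 9 rose and 2 fell, with 1 rise without rIIS-C (HS) replicate 1, 3 or 4 when a replicate of rIIS-C was left out, and 1 on uniquely mapped reads (median log2 fold change 0.26, at -0.03 there). The sperm phosphatase gene gsp-3 rose (log2 fold change 0.92), as did ssp-19 (2.24), while snf-10 and spe-26 fell (log2 fold changes -1.198 and -0.74).

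Oocyte and eggshell genes had few calls. Of 26 tested 0 rose and 1 fell, against 3.63% of all genes, and the fallen one was the oocyte zinc finger gene oma-1, with 105 and 113 CPM in rIIS-C (HS), against 173 and 137 CPM in rIIS-C (log2 fold change -0.51 ± 0.15, adjusted p = 0.0497). With the batch as a block 7 fell, on RPKM 14 fell and in DESeq2 2 fell. The count was 18 without rIIS-C replicate 2 and 0 when any other of the 4 libraries was left out. The list's summed level was 8059 and 9753 CPM in rIIS-C (HS), against 14262 and 8451 CPM in rIIS-C, so the groups overlapped. Genes of the germline and cell cycle had 0 rises and 1 fall among 33, and DESeq2 called 3 falls on the same 12 libraries. With the batch as a block 5 of them fell, and on RPKM 8 fell. Yolk protein genes depended on the library: all 6 vitellogenin genes had positive log2 fold changes (0.42 to 1.34), 1 rose, and 6 rose without rIIS-C replicate 1. vit-3, the one that rose, had 3740 and 6995 CPM in rIIS-C (HS), against 2950 and 1286 CPM in rIIS-C (log2 fold change 1.34 ± 0.36, adjusted p = 0.040).

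Genes of energy metabolism and translation had smaller differences. Of 39 genes of oxidative phosphorylation 13 rose and 0 fell (median log2 fold change 0.59), and 23 rose with the batch as a block. The count of rises was 0 without rIIS-C (HS) replicate 1, 7 with replicate 2 of rIIS-C left out, and 1 on RPKM. The cytochrome oxidase gene cox-6C had 142 and 105 CPM in rIIS-C (HS), against 70.8 and 67.0 CPM in rIIS-C (log2 fold change 0.84 ± 0.21, adjusted p = 0.0284). Ribosomal protein genes summed to 106354 and 87311 CPM in rIIS-C (HS), against 74499.5 and 63106 CPM in rIIS-C. Of 79 tested, 77 had a positive log2 fold change (median 0.50) and 62 had both rIIS-C (HS) libraries above both rIIS-C libraries, against 23.2% of all genes, and 45 were higher at an unadjusted p under 0.05, while 1 passed after adjustment, the ribosomal stalk gene rla-0 (log2 fold change 0.65 ± 0.17, adjusted p = 0.0367). With the batch as a block 24 of them rose, and without rIIS-C replicate 1 the count was 22. Ribosomal protein genes are short, with a median exon length of 444 nt, and with the exon length trend removed their median log2 fold change was 0.23. Genes of 36 to 576 nt had a median of 0.28 before that step.

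Fatty acid genes had 4 rises and 0 falls among 16 desaturases and elongases, and 4 rises and 0 falls among 20 genes of fatty acid oxidation, where 0 rose without rIIS-C (HS) replicate 1. The desaturase gene fat-6 had 460 and 410 CPM in rIIS-C (HS), against 172 and 182 CPM in rIIS-C (log2 fold change 1.29 ± 0.14, adjusted p = 0.000313). Of 52 transthyretin-related genes, small secreted proteins, 15 rose and 0 fell, with 4 rises when replicate 1 of rIIS-C (HS) was left out and 8 when that of rIIS-C was. Histone genes had 8 rises and 1 fall among 44 (1 to 4 rises when any of the 4 libraries was left out), and 0 rises on uniquely mapped reads, where 17 could be tested. The linker histone gene his-24 was the fallen one, with 8.60 and 5.16 CPM in rIIS-C (HS), against 12.08 and 17.6 CPM in rIIS-C (log2 fold change -1.09).

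**Figure D4:**
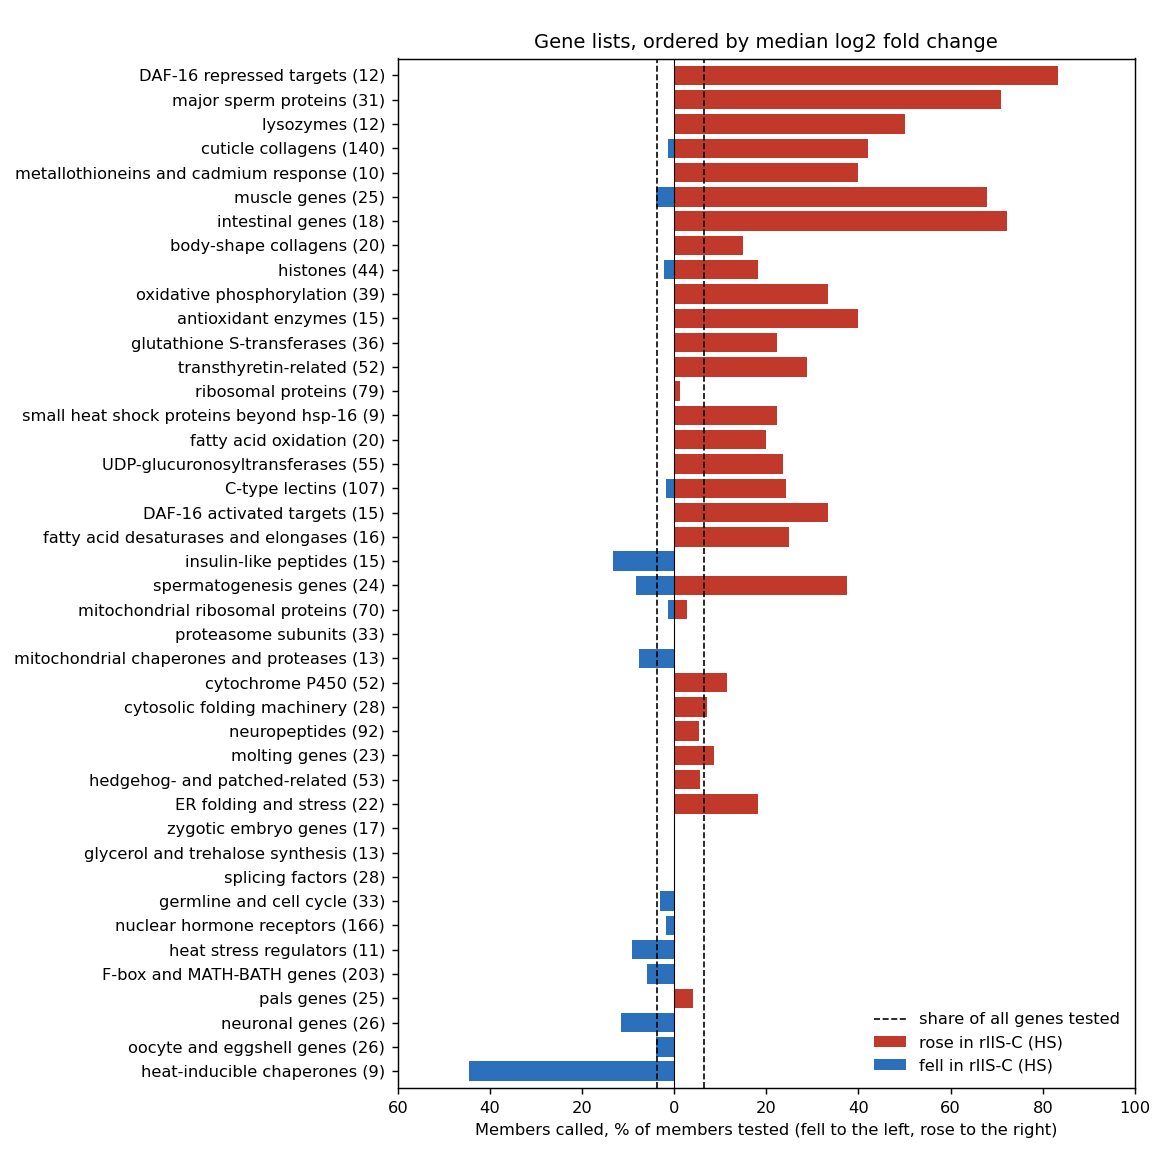
Share of tested members that rose (red, to the right) or fell (blue, to the left) in rIIS-C (HS) against rIIS-C, in % of members tested, for the 42 gene lists with at least 9 tested members, ordered by the median log2 fold change. The number of tested members is in parentheses and the dashed lines mark the shares of all genes tested (6.56% rose, 3.63% fell). Intestinal genes (13 of 18), muscle genes (17 of 25) and major sperm proteins (22 of 31) reach far past the line.

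Falls were fewer than rises in the 12-library fit (504 against 911) and were spread over many families. Tested on the authors' RPKM they outnumbered the rises (1548 against 412). The chitinase gene cht-1 (chromosome X, 3397799 to 3400016) had 4.51 and 3.30 CPM in rIIS-C (HS), against 21.3 and 23.1 CPM in rIIS-C (log2 fold change -2.47 ± 0.28, adjusted p = 0.000376). T22F3.11 had 16.09 and 11.8 CPM in rIIS-C (HS), against 61.8 and 57.1 CPM in rIIS-C (log2 fold change -2.08 ± 0.24, adjusted p = 0.000438). The lectin gene clec-266 had 3.19 and 2.15 CPM in rIIS-C (HS), against 10.1 and 19.6 CPM in rIIS-C (log2 fold change -2.47 ± 0.37, adjusted p = 0.00227). These 3 genes were low in the control strain without heat shock, where the means were 1.23 CPM for cht-1, 0.669 CPM for T22F3.11 and 0.281 CPM for clec-266. On daf-16 RNAi in the rIIS-C strain they were 1.08, 0.976 and 0.305 CPM. Means were above those of rIIS-C in hsf-1i (HS), at 28.2, 1572 and 17.8 CPM. On skn-1 RNAi they were 9.17, 1931 and 1.70 CPM, so only T22F3.11 was above rIIS-C there.

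F44E5.4, F44E5.5 and hsp-70 were themselves among the 15 largest falls. Others were sdc-2 of X chromosome dosage compensation, the laminin gene lam-3, the Mediator subunit gene dpy-22 and the calcium channel gene unc-2, all genes of long exons. dpy-22 had 15.3 and 22.5 CPM in rIIS-C (HS), against 71.0 and 37.4 CPM in rIIS-C (log2 fold change -1.52 ± 0.29, adjusted p = 0.00873). lam-3 had 5.13 and 11.3 CPM in rIIS-C (HS), against 26.7 and 19.9 CPM in rIIS-C (log2 fold change -1.54 ± 0.32, adjusted p = 0.0127). The calls of dpy-22, lam-3, sdc-2 and unc-2 were lost without rIIS-C (HS) replicate 1 (adjusted p = 0.0815, 0.0881, 0.0627 and 0.135).

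Of 26 neuronal genes 0 rose and 3 fell: unc-13, unc-31 and unc-104, which act in the release and transport of vesicles. unc-13 had 7.98 and 9.61 CPM in rIIS-C (HS), against 18.6 and 17.1 CPM in rIIS-C (log2 fold change -1.03 ± 0.18, adjusted p = 0.00488). With the exon length trend removed 2 of the 26 rose and 2 fell. Without rIIS-C (HS) replicate 1 the count of falls was 1. F-box and MATH-BATH genes, large families of adaptors for protein degradation, had 0 rises and 12 falls among 203 tested, and the falls were 1 without rIIS-C (HS) replicate 1, 5 with the other rIIS-C (HS) library left out and 3 without rIIS-C replicate 2. Nuclear hormone receptors had 0 rises and 3 falls among 166, and 1 to 6 falls when any of the 4 libraries was left out. Of all genes 3.63% fell, a larger share than the 3 of 166 nuclear hormone receptors. It was a smaller share than the 12 of 203 F-box and MATH-BATH genes. nhr-21 had 27.1 and 22.4 CPM in rIIS-C (HS), against 55.7 and 77.1 CPM in rIIS-C (log2 fold change -1.43 ± 0.20, adjusted p = 0.00146). The insulin-like peptide genes ins-4 and ins-19 fell among 15 tested, where ins-19 had 2.64 and 2.87 CPM in rIIS-C (HS), against 6.49 and 10.1 CPM in rIIS-C (log2 fold change -1.63 ± 0.38, adjusted p = 0.0246). Of 28 splicing factor genes 0 rose and 0 fell in edgeR and in DESeq2, and 0 passed an unadjusted p under 0.05.

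Fold changes ran with the exon length of genes. In 5 classes of about equal size, the median log2 fold change was 0.28 for genes of 36 to 576 nt, 0.07 for 579 to 936 nt, -0.03 for 939 to 1290 nt, -0.12 for 1291 to 1878 nt and -0.31 for 1879 to 55407 nt. In the shortest class 242 genes rose and 20 fell, and in the longest 56 rose and 229 fell. The slope had the same direction within the libraries of high junction share (medians of 0.25 and -0.22 in the shortest and longest class) and within those of low junction share (0.30 and -0.34). In the control strain it was steeper, with medians of 1.16 and -1.16 in C (HS) over C. With the trend removed, 1350 genes rose (9.72%) and 651 fell (4.69%), and 1258 of the 1415 calls made without this step were kept. In that fit 64 cuticle collagens, 13 intestinal genes, 22 muscle genes and 10 genes repressed by DAF-16 rose. Other lists moved: 4 histone genes rose in that fit, against 8 without this step, and 6 vitellogenin genes, against 1. The median was 0.23 for ribosomal protein genes, against 0.50 without this step, and 0.27 for transthyretin-related genes, against 0.52.

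**Figure D5:**
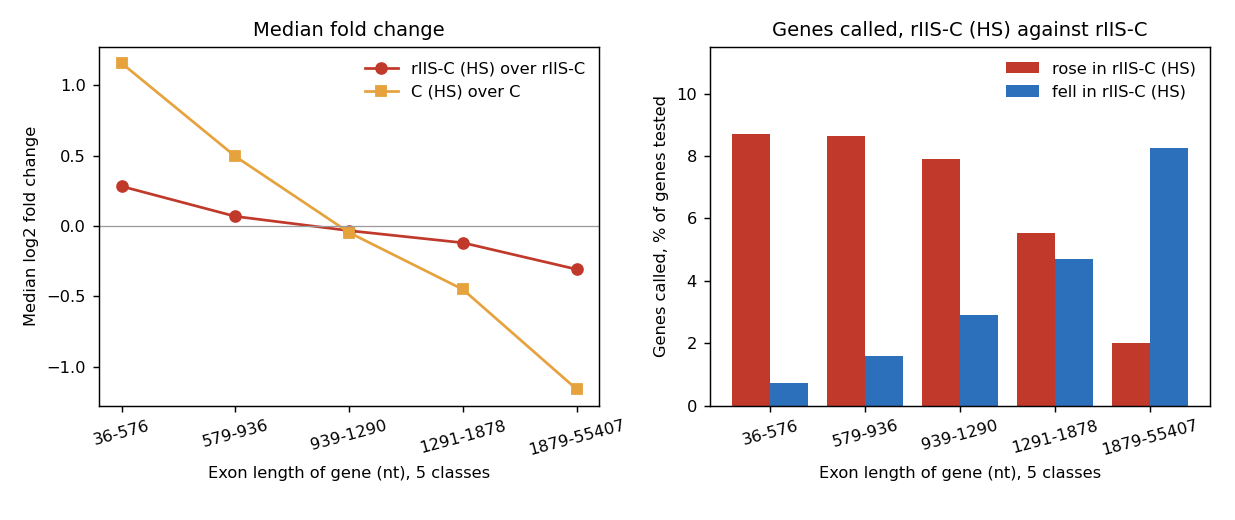
Left, the median log2 fold change in 5 classes of exon length for rIIS-C (HS) over rIIS-C (red) and C (HS) over C (orange). Right, the share of tested genes that rose or fell in rIIS-C (HS) against rIIS-C in each class, in %. Medians run down from 0.28 to -0.31 in rIIS-C and from 1.16 to -1.16 in C.

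By chromosome, the share of genes that rose ran from 3.65% on chromosome I to 9.41% on X, and the share that fell from 2.12% on X to 4.94% on I. Reads in introns gave another view of the same libraries. They made up 0.853% and 0.927% of the reads of nuclear protein-coding genes in rIIS-C (HS), against 0.846% and 1.11% in rIIS-C. Among 1467 genes with enough intron reads to test, 5 rose (0.341%) and 1 fell (0.0682%). The largest rise was in ncr-2 (chromosome III, 8258345 to 8265688), a gene of sterol transport, at a log2 fold change of 2.99 in intron reads (adjusted p = 0.0163), whereas its exon reads fell (-0.63). The collagen gene col-91 (8262466 to 8263629), which rose by 2.41 on the log2 scale, lies within the span of ncr-2. Likewise msp-33 lies within gst-9, and msp-31 within aagr-2, and both msp genes rose. The library kit does not mark strand, and reads of these 3 hosts and of the genes inside them cannot be told apart.

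The last comparison set the difference between libraries labelled as heat-shocked and not across the strains. Here response means the log2 fold change of rIIS-C (HS) over rIIS-C or of C (HS) over C, and what was said above of the rIIS-C (HS) label holds for every value. In the control strain 3855 of 14084 genes rose (27.4%) and 3506 fell (24.9%) in C (HS) against C. The response of rIIS-C was higher than that of C in 1404 genes (9.97%) and lower in 1486 (10.6%), by the test of the difference itself. These counts moved with single libraries: higher and lower responses numbered 508 and 332 without C replicate 1, 679 and 495 without C replicate 2, 2820 and 2928 without C (HS) replicate 1, 887 and 933 without rIIS-C replicate 2, and 643 and 485 without rIIS-C (HS) replicate 2. With the exon length trend removed 810 genes had a higher response.

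For the heat-inducible chaperones the difference was of another size. All 9 had a lower response in rIIS-C, with differences of log2 fold change from -7.06 for F44E5.5 to -10.67 for hsp-16.41, and so had aip-1 (-4.97 ± 0.29). For hsp-16.2 the difference was -9.63 ± 0.53, and over 11 other settings it ran from -10.14 to -8.93. Every one of these 10 genes stayed past the threshold in each of the 11 settings, with the highest adjusted p at 0.0075 for F44E5.5. Lower responses in rIIS-C were also found for 16 of 28 genes of the cytosolic folding machinery, of which 22 rose in C, and for 73 of 79 ribosomal protein genes, of which 77 rose in C with a median log2 fold change of 2.15. In C the median of the shortest genes was 1.16 and that of the longest -1.16, and the part of exon length in the difference for ribosomal protein genes (median 444 nt) was not tested.

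Other groups differed in the opposite direction, had few calls or rose in both strains. UDP-glucuronosyltransferases had a higher response in rIIS-C for 23 of 55 genes and a lower one for 1, and 27 of the 55 fell in C. Their median exon length was 1596 nt, and its part in this difference was not tested either. For ugt-62 the difference of log2 fold change was 2.60 (± 0.29, adjusted p = 0.000182). Genes repressed by DAF-16 had a higher response for 8 of 12 and a lower one for 1, with a difference of 2.19 for dod-24 (± 0.59, adjusted p = 0.0236). Cuticle collagens had a higher response for 12 of 140 and a lower one for 11, near the shares of all genes. Of 25 muscle genes 17 rose in rIIS-C, and 19 rose and 5 fell in C. Of 31 major sperm protein genes 22 rose in each strain. Of 18 intestinal genes 13 rose in rIIS-C, and 10 rose and 3 fell in C. In C 27.4% of all genes rose and 24.9% fell. In that order of lists, the response was higher in rIIS-C for 2, 0 and 3 genes and lower for 2, 0 and 1. For asp-1 and lys-2 the differences were -0.01 ± 0.42 and -0.14 ± 0.25 and did not pass the test.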

How the data were processed

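RNA-seq libraries of whole worms were made with an unstranded mRNA kit. Per the labels and methods, the authors demultiplexed reads with CASAVA 1.8.2 and mapped them to WBcel235 in CLC Genomics Workbench, and they deposited the counts of total exon reads per gene used here. The RPKM values deposited beside them were computed by the authors per exon length and mapped reads, with no further scaling. Of 46856 genes in the files, 46733 matched RefSeq names, and 4 numeric columns without a header were not used.

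The members, gene lists and tests were chosen with earlier results of these data known. Exon counts were scaled by TMM and tested with the quasi-likelihood test of edgeR 4.0.16 (R 4.3.3) after filterByExpr, with 1 coefficient per group over 12 libraries (all but C (HS)) and p-values adjusted over all genes by Benjamini-Hochberg. A 14-library fit gave C (HS) against C and the difference of responses. Its common dispersion was 0.0508, against 0.0275 in the 12-library fit. CPM rest on the TMM-scaled library sizes. Genes were named by rule: the 15 largest rises and 15 largest falls among called protein-coding genes whose groups do not overlap and whose mean reached 10 CPM in a group, up to 4 called members of each list in each direction, and all heat-inducible chaperones, aip-1, hsf-1, daf-16, skn-1 and daf-2. Other genes, such as hsp-1, col-19 or gst-4, were chosen after their values were seen.

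Libraries were paired by junction share, because, over the 6 groups of the 12-library fit, all 15 pairs of same-batch libraries deviated together (correlations 0.121 to 0.388), whereas 10 of 15 pairs with the same label number passed 0.1 (-0.388 to 0.334). The label-number pairs that did not pass all held rIIS-C (HS) (-0.388 to -0.201). It was the only one of these groups whose label numbers run opposite to the junction share. C (HS), with junction shares of 14.3% and 16.7%, was not in this check. In the 14-library fit with the block, its library of lower share was put with the low ones. Alternatives were DESeq2 1.42.0, limma 3.58.1 on log2(RPKM + 1) and log2(RPKM + 0.1) with a minimum mean RPKM of 1, other filters and scalings, unique reads, exon length removal (lowess span 0.3), the blocks, and leaving out libraries. On simulated data for 13709 genes, 65% of genes changed 2-fold and 100% of genes changed 4-fold were recovered in this comparison, with 10 unchanged genes called. The simulated counts followed the dispersions of the 12-library fit, with no batch and no exon length trend, and only genes averaging 10 CPM or more were changed. The simulation therefore cannot give the recovery or the false calls in the real libraries. p-values rest on the spread between the 2 samples of each group, pooled over all libraries of a fit and so partly over groups outside the comparison. With only the 4 libraries compared 52 genes rose and 3 fell, against 911 and 504 in the 12-library fit. Figures were drawn with matplotlib 3.10.9.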

Additional observations from a re-analysis of the deposited data

Results flagged for a closer look

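The log2 fold change of the libraries labelled rIIS-C (HS) over rIIS-C differed from that of C (HS) over C in a test of the difference itself, higher in rIIS-C for 1404 genes and lower for 1486. Whether the 2 libraries labelled rIIS-C (HS) received the heat shock cannot be told from the files. For the heat-inducible chaperones, the log2 fold change in rIIS-C minus that in C was -7.09 for F44E5.4, -7.06 for F44E5.5, -8.35 for hsp-16.1, -9.14 for hsp-16.11, -9.63 for hsp-16.2, -10.67 for hsp-16.41, -8.79 for hsp-16.48, -8.64 for hsp-16.49 and -7.75 for hsp-70. aip-1 had a difference of -4.97. Groups here hold 2 libraries each, so no search for single outlying samples was made.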

How the results depend on the processing

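Counts of calls depended on the samples in the fit and on the scaling. Rises and falls numbered 266 and 45 with all 14 libraries, 52 and 3 with the 4 libraries compared alone, 412 and 1548 with limma on log2(RPKM + 1), and 352 and 1021 on log2(RPKM + 0.1). Unique exon reads gave 326 falls. With the junction-share batch as a block there were 1639 rises and 1313 falls, and 1710 and 1030 with exon length removed as well, a fit chosen after seeing the data. A block on the label numbers, which do not pair the libraries, gave 822 rises and 370 falls. Leaving out 1 library of the comparison gave 459 to 1087 rises and 80 to 928 falls. For the difference of responses, exon length removal gave 810 higher, and leaving out a library gave 508 to 2820 higher and 332 to 2928 lower. The cause was not tested.

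Values not called turned sign as follows when a library was left out: hsp-16.1 -1.21 to 0.03, hsp-16.41 -2.07 to 0.03, hsp-16.48 -1.66 to 0.10, hsp-16.49 -1.61 to 0.10, aip-1 -0.19 to 0.14, daf-16 -0.36 to 0.42 and skn-1 -0.51 to 0.07. daf-16 was also at 0.01 with no filter, 0.28 with exon length removed, 0.02 under either block, and 0.30 with batch block and length removal. Of 41 genes tracked singly 32 were called. Most were picked for large changes and groups without overlap, so leaving out a library could hardly turn a sign. The count of turned signs that follows is thus no test of stability for these 32 genes. Their 570 values under alternatives kept sign and call in 526, lost the call in 44 (16 of them with 4 libraries alone) and turned sign in 0. In 11 of the 32 the call held in every setting, and in 14 of the 32 when the 4-library fit was not counted. Depth limits genes of few reads most in rIIS-C replicate 1, with 4681170 exon reads.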
